A study of Caenorhabditis elegans with 4 samples.

Results

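MAU-2 sites on chromosome II of Caenorhabditis elegans are described here, taken from 3 deposited peak lists of a chromatin immunoprecipitation sequencing (ChIP-seq) experiment. All peaks on chromosome II were pooled, and peaks sharing at least 1 bp were merged into sites. This gave 298 sites, out of 2069 in the whole series. The embryos were of the wild-type laboratory strain N2, of mixed developmental stages and from a mixed population of males and hermaphrodites, with no other treatment or allele given. One peak list belongs to each of 2 ChIP replicates, and a further list, called series-wide below, belongs to the series as a whole. The 2 input samples were not analysed here. The antibody was an affinity-purified rabbit polyclonal raised against MAU-2. Whole embryos were used, so a site cannot be assigned to a cell type or stage, and it is not stated if each replicate was a culture of its own.

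MAU-2 belongs to the Scc4 family of proteins. It works with SCC-2, the worm member of the Scc2 (NIPBL) family, as the loader that places cohesin on chromatin. Cohesin is a ring-shaped complex that holds sister chromatids together and extrudes chromatin loops, and the loader is needed for both. C. elegans chromosomes are holocentric, that is, they have no single centromere. Their autosomes have gene-dense centres flanked by arms that are richer in repeats and in heterochromatin and that recombine more often in meiosis.

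Chromosome II carried 256 of the 1880 peaks of replicate 1, 111 of the 762 peaks of replicate 2 and 137 of the 1018 series-wide peaks. The median peak width was 405 bp in replicate 1, 470 bp in replicate 2 and 316 bp in the series-wide list. Each peak has a score assigned by the authors' peak caller, whose scale the files do not name. On chromosome II the replicate 1 scores lay between 50.1 and 3100, those of replicate 2 between 50.6 and 3100, and the series-wide scores between 1.56 and 121. Scores of the series-wide list cannot be set against those of a replicate. The files hold no read counts, so depth is unknown. Coordinates are those of WormBase WS220, counted from 1, and no gene annotation of that build was used here. The last series-wide position, 15279375, stands for the length of the chromosome. Together the sites covered 158926 bp, or 1.04% of that length.

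A core of 71 sites was held by all 3 lists, which is 23.8% of the sites (95% interval 19.1 to 29.1). The largest class was the 144 sites in the list of replicate 1 alone, at 48.3% (42.5 to 54.2). A further 32 sites were in the series-wide list alone and 6 in replicate 2 alone. Sites in exactly 2 lists numbered 45, of which 19 were in both replicates but not in the series-wide list. The other combinations, of the series-wide list with a single replicate, held 13 sites each. Intervals of shares cover counting error only and treat sites as independent, which neighbouring sites are not.

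The classes differed in score and width. Sites in all 3 lists had a median replicate 1 score of 603, compared with 83.3 for the sites of replicate 1 alone. Not one of those 144 sites reached that median, and the highest of them scored 340. Of the 71 sites in all 3 lists, 53 lay above this highest score and the lowest lay at 103, so the ranges of the classes overlapped. Median widths were 669 bp for sites in all 3 lists, 280.5 bp for replicate 1 alone and 225 bp for the series-wide list alone. The merged width of a site in all 3 lists spans the peaks of every list, which by itself makes it larger. Within a list, at the 62 sites with 1 peak in each, median peak widths were 640 bp in replicate 1 and 366.5 bp in the series-wide list. The sites of the series-wide list alone scored 4.67 at the median and 11.8 at most, against a median of 15.4 for the sites in all 3 lists. These ranges overlapped too, since all 32 scored above the lowest site in all 3 lists, at 1.56, and 42 of the 71 lay above all 32.

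Replicate support on chromosome II was close to that of the whole nuclear genome. Of its 137 series-wide peaks, 77 overlapped a peak in both replicate lists, or 56.2% (47.5 to 64.7), where the genome-wide share was 60.4%. The share on the other 5 nuclear chromosomes was 61.0% (57.7 to 64.3), and the difference did not pass the threshold of 0.05 (Fisher's exact test, two-sided, p = 0.30, adjusted p = 0.60 over 6 comparisons of chromosome II with other chromosomes). Its direction turned when overlaps had to be reciprocal or only higher-scoring peaks were used. In the list of replicate 2, 91 of 111 peaks had a counterpart in replicate 1, which is 82.0% (73.6 to 88.6) beside a genome-wide 83.1% (adjusted Fisher's exact p = 0.91 against the other chromosomes). In the list of replicate 1, 96 of 256 peaks had a counterpart in replicate 2, or 37.5% (31.6 to 43.7) beside 36.7% (adjusted Fisher's exact p = 0.91). These tests also treat peaks as independent.

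Within chromosome II, higher-scoring peaks had more support in each list. In the lowest score quartile of its replicate 1 peaks, 1 of 64 was found in replicate 2. In the next quartile 8 of 64 were found, then 27, and in the highest quartile 60 of 64, or 93.8% (84.8 to 98.3). For the series-wide peaks the numbers went from 7 of 35 peaks found in both replicates in the lowest quartile to 31 of 34 in the highest. Most replicate 2 peaks were found in replicate 1 in every quartile, from 18 of 28 in the lowest to 22 and 26 of 28, and 25 of 27 in the highest. The intervals of the lowest and highest quartile overlapped, at 44.1 to 81.4% and 75.7 to 99.1%.

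The 15 sharp sites named here were the strongest by series-wide score. Of them, 9 lay in the centre of the chromosome, beside 28 of the 71 sites in all 3 lists. A site was termed sharp when its merged width was at most 1000 bp, which applied to 269 sites in all and to 55 of the 71 in all 3 lists. The first sharp site by series-wide score lay from 5844554 to 5845342. Its series-wide score was 121, with 2624 in replicate 1 and 1568 in replicate 2, and it ranked first among the sharp sites of all 3 lists in each. It stood alone, with no other site of any list within 62.1 kb.

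The second, from 5104873 to 5105637, had a series-wide score of 78.7 and replicate scores of 1532 and 747. The next one, from 7199934 to 7200660, had 76.9 in the series-wide list and 2481 and 934 in the replicates. These 3 sites held the first 3 ranks in every list, with the last pair exchanged in both replicates. The fourth, from 10839928 to 10840574, differed from them in its balance between the replicates, with 59.7 in the series-wide list and nearly equal scores of 727 and 723. Over the 71 sites in all 3 lists, the median ratio of replicate 1 to replicate 2 scores was 2.16. It ranked 17 among the sharp sites of replicate 1 but 4 in replicate 2.

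The fifth lay far to the right, from 14496672 to 14497335, with a series-wide score of 44.8 and replicate scores of 851 and 475. The sixth began at the first base of the chromosome and ended at 461. Its series-wide score was 40.3. It scored 1452 in replicate 1 and 238 in replicate 2, so that it ranked 4 in the former and 21 in the latter.

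The remaining sharp sites named had series-wide scores between 25.6 and 40.2. Those from 5292113 to 5292666, from 6248322 to 6249070 and from 8106873 to 8107545 scored 452, 1112 and 904 in replicate 1. In replicate 2 the same sites scored 406, 387 and 463. A site from 9774408 to 9775125 scored 1020 in replicate 1 and 319 in replicate 2. The site from 7183670 to 7184450 lay 15.5 kb to the left of the site that begins at 7199934 and was the one site of the 15 that scored higher in replicate 2, with 450, than in replicate 1, with 417.

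Toward the right end, the site from 15165677 to 15166201 scored 603 in replicate 1 and 278 in replicate 2. The site from 10335887 to 10336459 had the widest difference in rank of the 15, at 7 in replicate 1 with a score of 1030 and 31 in replicate 2 with 177. The list closed with the sites from 5032467 to 5033157, with replicate scores of 579 and 326, and from 5576947 to 5577463, with 331 and 201. The next sharp site in order, not counted among the 15, had a series-wide score of 25.4 against 25.6 for the last one counted.

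**Figure D1:**
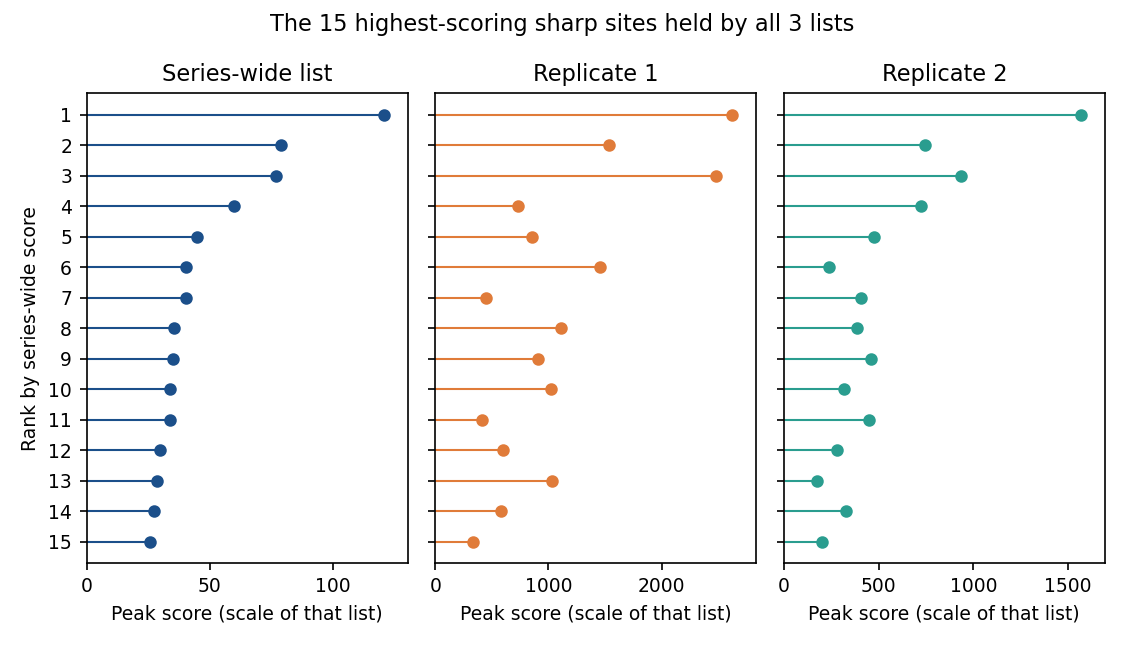
Peak scores of the 15 sharp sites with the highest series-wide score among those in all 3 lists, 1 row per site in order of that score and 1 panel per list. Each axis starts at 0 and has the scale of its own list. The first site leads in all 3 panels, with 121, 2624 and 1568, and the end site in row 6 is high in replicate 1 (1452) but not in replicate 2 (238).

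The distance from these 15 sites to the nearest other site of any list was 15.5 kb at the median. It exceeded 10 kb for 9 of the 15 and was 0.5 kb at the least. Gaps between consecutive sites of any list were 20.7 kb at the median. A nearest distance is the smaller of the gaps to either side, so these medians cannot be compared directly. Whether the 15 stood further apart than other sites was not tested. By position, 9 of the 15 lay in the central 33.3% of the chromosome, from 5093126 to 10186250. To the left of it lay 2 and to the right 4. The central region held 28 of the 71 sites in all 3 lists. The 15 were ranked by series-wide score, whose regional median was highest in the centre, while both replicate medians were highest on the right.

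The limit of 1000 bp set aside 7 sites of all 3 lists whose series-wide score exceeded the lowest among the 15. The highest lay from 5543276 to 5544368 and was 1093 bp wide. It held 2 peaks of the series-wide list, 2 of replicate 1 and 1 of replicate 2. Its series-wide score was 90.3, with 2840 in replicate 1 and 1657 in replicate 2. Below the limit, the widest site in all 3 lists measured 934 bp, from 628906 to 629839, with a series-wide score of 16.5.

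Where a site had exactly 1 peak in each list, the median distances between midpoints differed little from one pair of lists to another. Over 62 such sites, the midpoints of the replicate peaks lay 27.5 bp apart at the median and 203.5 bp apart at most. The series-wide midpoint lay 35.3 bp from that of replicate 1 at the median and 341.5 bp at most, and 30.5 bp and 545 bp from that of replicate 2. All 3 of these maxima came from 1 site, from 1936025 to 1936885. There the series-wide and replicate 2 peaks shared no base and were joined through the replicate 1 peak, as at no other of the 71 sites in all 3 lists. The median width was 640 bp in replicate 1, 489 bp in replicate 2 and 366.5 bp in the series-wide list. The replicate 2 peak was the narrower of the replicate pair at 47 of the 62 sites, and the series-wide peak was narrower than the replicate 1 peak at 56.

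Scores of the replicates rose together across the 90 sites held by both, with a Spearman's rho of 0.82. This is a description over sites that share the same pair of libraries. On the other chromosomes the same measure ran from 0.63 on V to 0.81 on X and III. Replicate 1 gave the higher score at 66 of the 71 sites in all 3 lists and replicate 2 at 3. The other 2 had exactly 3100 in both, which does not show that their signal was equal. The ratio of the replicate 1 score to that of replicate 2 was 2.16 at the median, with a range from 0.858 to 8.84. The score scale is not named and depth is unknown, so this ratio does not measure a difference in binding. The 10 highest-scoring sites of the replicates had 9 in common, and each replicate shared 7 with the 10 highest of the series-wide list. Among the 20 highest, the replicates had 11 in common and each shared 14 with the series-wide list.

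**Figure D2:**
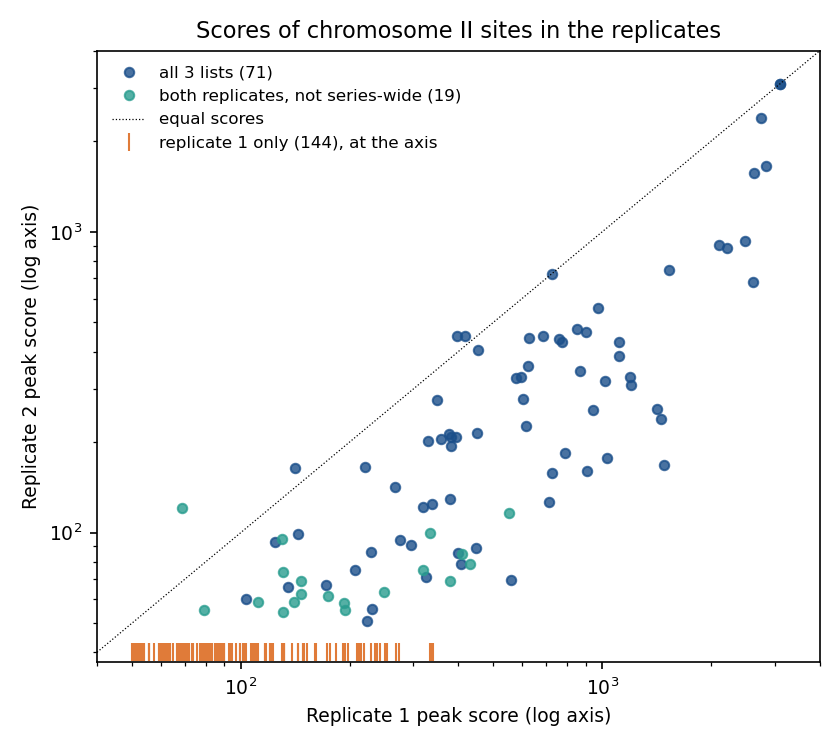
Peak score in replicate 1 against that in replicate 2, both on log axes, for the 90 chromosome II sites held by both replicates. Blue points are the 71 sites in all 3 lists, green points the 19 absent from the series-wide list, orange ticks the replicate 1 scores of the 144 sites without other support, and the dotted line marks equal scores. Of the blue points, 66 lie below that line, and the orange ticks end at 340.

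Wide sites were few. Of the 298 sites, 8 were wider than 2000 bp and together held 14.2% of all bases in sites. The widest, from 8288318 to 8292843, measured 4526 bp and had a series-wide score of 56.5. It spanned 4392 bp in replicate 1 and 4523 bp in replicate 2 and scored exactly 3100 in both. The site from 12843647 to 12846161 also scored 3100 in both replicates, with a series-wide score of 34.0. No other chromosome II peak of the replicates reached 3100.

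A further 3 wide sites were in all 3 lists. The one from 5144509 to 5146814 had a series-wide score of 30.0 and replicate scores of 2209 and 884. The one from 11757551 to 11760544 scored 28.5, 2106 and 903, and its 2994 bp held 3 series-wide peaks, 2 of replicate 1 and 1 of replicate 2. The last, from 6505441 to 6508704, was split in the same way and scored 20.1, 686 and 451. Replicate 2 covered each of these 3 with a single peak.

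The other 3 wide sites lacked a list. From 1977537 to 1979550 both replicates had a peak, with scores of 410 and 84.9, and the series-wide list had none. The replicate 1 peak there was 2014 bp wide and that of replicate 2 was 572 bp. From 14327539 to 14329696 replicate 1 had a peak of 2158 bp with a score of 767, replicate 2 had none, and the series-wide list had one of 146 bp with a score of 5.38.

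By series-wide score, the strongest sites that a replicate lacked were a pair of neighbours in the left end region. The first ran from 4641201 to 4642308 and the second from 4642318 to 4645041, 9 bp further on. They scored 489 and 524 in replicate 2, and 28.1 and 20.2 in the series-wide list. Replicate 1 had no peak within 75.7 kb of them, although its list was the longer. Among sites missing from replicate 2, the highest series-wide score was 16.3, at a site from 3796364 to 3797409 that scored 408 in replicate 1. Among sites missing from the series-wide list, the highest replicate 1 score was 553, from 6185239 to 6186484, where replicate 2 scored 116. The highest such replicate 2 score was 121, from 3106260 to 3107183, with 68.5 in replicate 1.

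In each list, the highest score among sites with a single list behind them was below the highest score just given. The highest-scoring one of replicate 1 alone ran from 14325056 to 14326206 with 340, and that of replicate 2 alone from 15139980 to 15140224 with 82.9. That of the series-wide list alone was the last site of the chromosome, from 15279043 to 15279375, with 11.8. The last replicate 1 peak ended at 15173016 and the last replicate 2 peak at 15166099. At the right end the replicates thus had no counterpart of the series-wide end peak, whereas at the left end all 3 lists had a peak at the first base.

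Along the chromosome, the central share was larger among sites of all 3 lists than among sites of replicate 1 alone. The left, central and right regions of 33.3% of the length held 16, 28 and 27 of the sites in all 3 lists. Of the sites of replicate 1 alone they held 57, 26 and 61. The central share was 39.4% (28.0 to 51.7) in the first class and 18.1% (12.1 to 25.3) in the second. Over all 298 sites it was 29.2% (24.1 to 34.7), which lies inside the interval of the first class. Among sites of the series-wide list alone it was 59.4% (40.6 to 76.3), with 17 of these 32 sites in 1 run. These intervals treat sites as independent. On the right, however, 7 of the 27 sites in all 3 lists lay in 1 run of neighbours, and 12 of the 61 sites of replicate 1 alone in another. The difference between these classes was not tested.

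In steps of 1 Mb, the stretch from 5 to 6 Mb was the richest in sites of all 3 lists, with 12 of its 20 sites. Their series-wide scores ran from 8.67 to 121 with a median of 26.5, and 5 of the 15 named sharp sites lay among them. Just 4 sites there were in replicate 1 alone. The first 3 Mb were the opposite, with 53 sites of which 3 were in all 3 lists and 34 in replicate 1 alone. The longest stretch without a site of all 3 lists ran from 1936885 to 3290543, over 1354 kb. The longest without any site ran from 1036433 to 1519988, over 484 kb.

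The score of sites in all 3 lists also varied with position, but the lists ranked the regions differently. The series-wide medians were 7.92 on the left, 21.6 in the centre and 14.4 on the right. In replicate 1 the medians were 389, 534 and 790, and in replicate 2 they were 167, 241 and 258. The left region was lowest in all 3 lists. The centre was highest in the series-wide list and the right region in both replicates, by little in replicate 2. Of the 27 sites on the right, 7 lay in 1 run of neighbours from 13817594 to 13836124, described below. The first 6 of these scored 258 to 442 in replicate 2, and medians without that run were not taken.

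**Figure D3:**
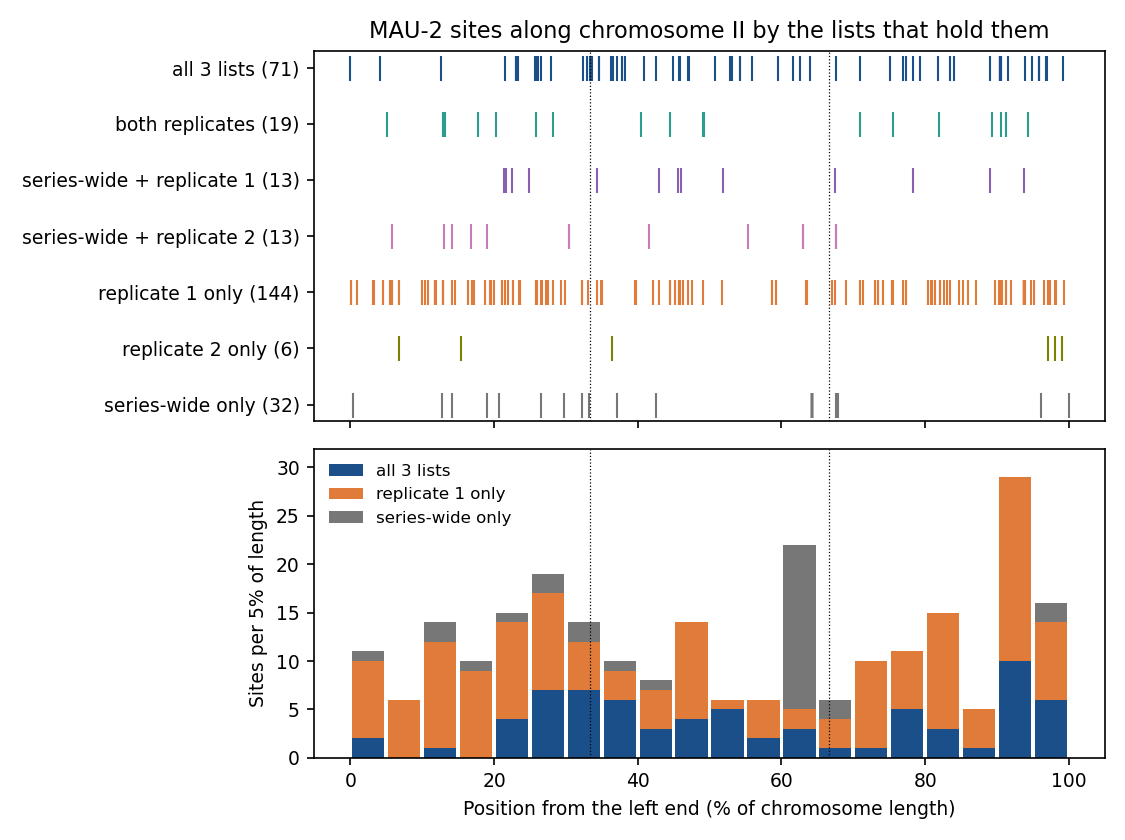
Position of the 298 sites as percent of the chromosome length from the left end. The upper panel has 1 tick per site and 1 row per combination of lists, and the lower panel stacks the numbers per 5% of length for sites in all 3 lists (blue), in replicate 1 alone (orange) and in the series-wide list alone (grey). Dotted lines bound the central 33.3%. The grey column inside it is the run of 17 series-wide peaks described in the text.

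Set against the other 4 autosomes, the position of chromosome II peaks did not differ past the threshold in any list. In the series-wide list, 59 of 137 peaks lay in the centre, or 43.1% (34.6 to 51.8), beside 37.9% over all autosomes and 36.8% on the other 4 (Fisher's exact test, two-sided, p = 0.18, adjusted p = 0.53). With dense stretches, defined next, left out of all autosomes, these shares were 41.2% and 27.9% (Fisher's exact p = 0.0093, adjusted p = 0.056). In replicate 1 the centre held 66 of 256 peaks, or 25.8% (20.5 to 31.6), beside 31.8% over all autosomes and 33.0% on the other 4 (Fisher's exact p = 0.026, adjusted p = 0.16). Without dense stretches the direction turned, with 30.1% on II and 28.2% on the others. In replicate 2 it held 37 of 111, or 33.3% (24.7 to 42.9), beside 34.0% over all autosomes (adjusted Fisher's exact p = 0.91).

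Dense stretches were runs of at least 5 sites whose neighbouring midpoints lay at most 10 kb apart. Chromosome II had 5 of them, holding 54 of its 298 sites, or 18.1%. On the other nuclear chromosomes this share ran from 6.67% on I to 28.4% on III. The stretches of chromosome II differed sharply in which lists had found them. They held 18 of the 32 sites in the series-wide list alone, but 12 of the 71 in all 3 lists and 18 of the 144 in replicate 1 alone.

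The stretch with the most sites per kb had no replicate support. From 9808563 to 9824204, over 15642 bp, it held 17 series-wide peaks, or 1.09 per kb, and no peak of replicate 1 or replicate 2. The replicate lists name another peak caller (MACS, not MACS v2), and whether this bears on their lack of peaks here was not tested. The other stretches held at most 0.805 sites per kb. By the median distance between midpoints, the stretch that begins at 14323837 was closer packed, at 656.5 bp. The 17 series-wide peaks of the stretch that begins at 9808563 were 146 to 573 bp wide and lay 730 bp apart at the median (midpoint to midpoint). They scored between 2.65 and 7.37, the highest from 9808918 to 9809295. None reached the median score of the sites in all 3 lists. The nearest replicate 1 peak was 33.4 kb away, at the sharp site that begins at 9774408. Over the 17 sites of this stretch, the distance to the nearest replicate 1 peak was 39.8 kb at the median. For the other 15 sites of the series-wide list alone, it was 10.9 kb at the median, with a range from 0.34 to 106 kb.

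The best supported stretch was a regular row of blocks in the right end region. From 13817594 to 13836124 it held 9 sites, 8 of them in both replicates and 7 in all 3 lists. Its first 6 sites, ending at 13827868, were all between 1312 and 1532 bp wide. Their midpoints followed each other at steps of 1522.5 to 1922.5 bp, and together they covered 83.0% of their span. Their scores were 629 to 1414 in replicate 1, 258 to 442 in replicate 2 and 5.14 to 14.6 in the series-wide list. The site from 13822648 to 13824179 had the highest series-wide and replicate 1 scores of the row but the lowest replicate 2 score, and its series-wide score was below the median of sites in all 3 lists. This run of 6 was singled out after its values were seen.

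Another stretch was almost private to replicate 1. From 14323837 to 14346530, 14 sites were in the list of replicate 1, 2 in the series-wide list and 1 in replicate 2. Its first 12 sites, ending at 14331712, followed each other with gaps of 3 to 309 bp and covered 83.3% of their span, with replicate 1 scores from 63.8 to 767. Replicate 2 had no peak in that run, which was also singled out after its values were seen. Next to it stood one of the strongest sites of the chromosome, from 14337489 to 14339265, with a series-wide score of 52.3 and replicate scores of 2757 and 2398. That site alone of the 14 was found by all 3 lists.

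The remaining stretches lay in the left end region and had low series-wide scores. From 3937848 to 3946545, 7 sites were packed into 8698 bp, with 5 of them in both replicates and 4 in all 3 lists. Their scores were at most 448 in replicate 1, 93.2 in replicate 2 and 5.34 in the series-wide list, the last at the site from 3945319 to 3946545. From 1952633 to 1984042, 7 sites were spread over 31410 bp, with 2 in both replicates and 0 in all 3 lists. The highest replicate 1 score there was 410, at the wide site from 1977537, and the highest series-wide score was 5.85, from 1952633 to 1952778.

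**Figure D4:**
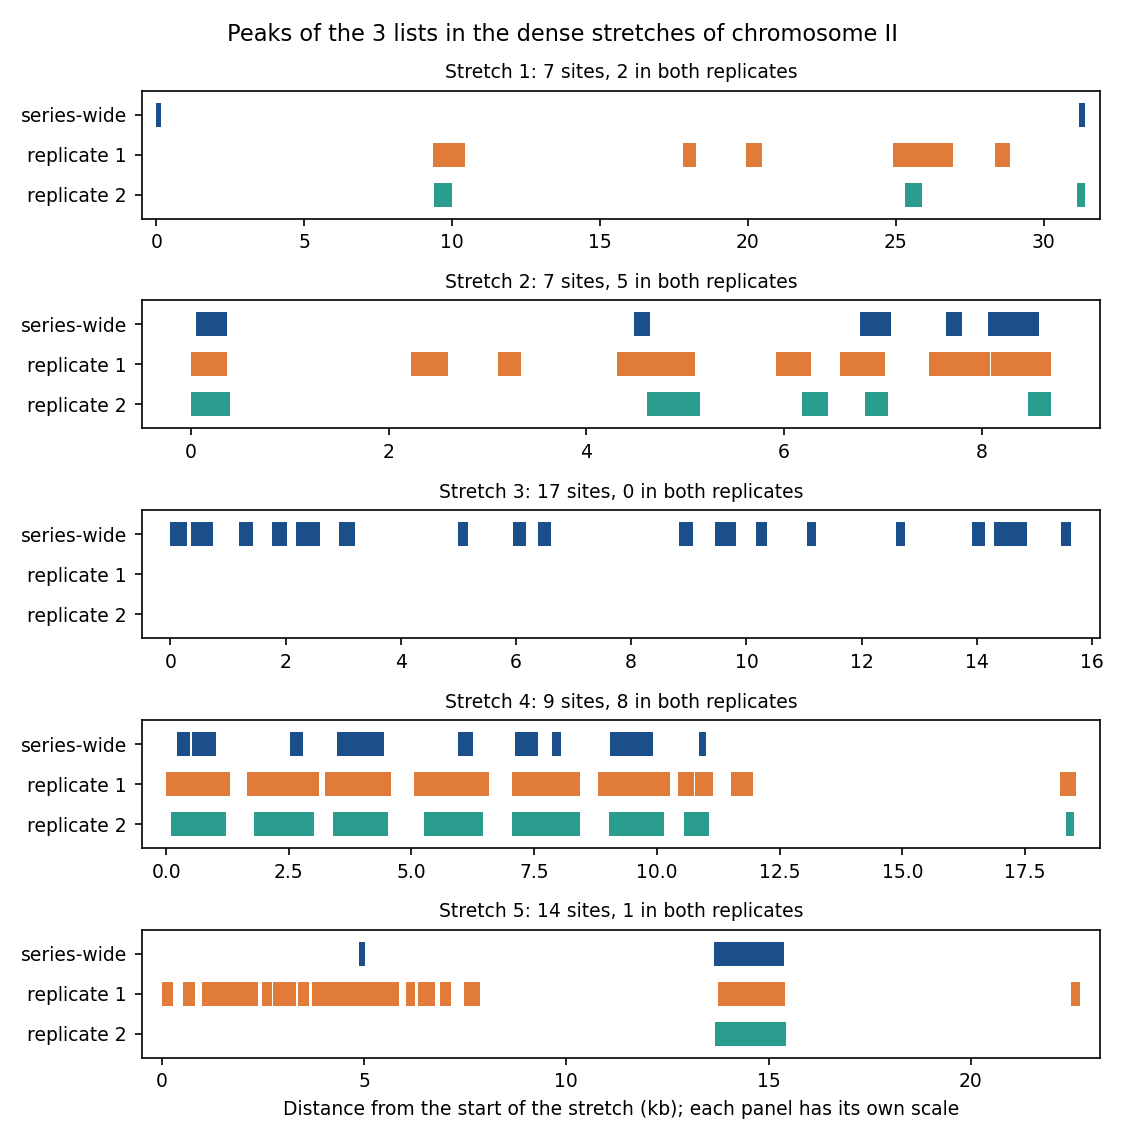
Peaks of each list in the 5 dense stretches of chromosome II, as bars from start to end, against the distance from the start of the stretch in kb, with a scale of its own in each panel. Stretch 3 holds 17 series-wide peaks and none of the replicates. Stretch 4 shows a row of blocks in both replicates, and stretch 5 a run of replicate 1 peaks followed by a site that all 3 lists share.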

How the data were processed

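Per the labels' protocols, live embryos were cross-linked with formaldehyde, sonicated and immunoprecipitated. Per the submitters' processing notes, the aligner was BWA and the build ce10, with no version stated. Per the file headers, the build is WormBase WS220; per the caller column of the deposited lists, peaks came from MACS for the replicates and MACS v2 for the series-wide list. Score thresholds, input use and pooling of reads: not given in the sources used here. The score of each deposited peak is the authors' own and served to rank and filter peaks inside its own list. A site with several peaks of a list has the highest of their scores.

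Chromosome length was the highest series-wide coordinate. Shares have exact Clopper-Pearson intervals at 95%. Chromosome II was compared with the other chromosomes by two-sided Fisher's exact tests, adjusted by Benjamini-Hochberg over 6 comparisons. Sites named are the 15 sharp sites in all 3 lists with the highest series-wide score, the highest-scoring site of each other combination of lists, those wider than 2000 bp, the end sites, and the bounds and highest-scoring site of each dense stretch. A site over 1000 bp wide at the sharp limit and the neighbours at thresholds were added. Sites and rules were chosen with earlier results of these data known. The alternatives were other overlap and merging rules, other distances for dense stretches, higher-scoring peaks, and end regions of 25%. Wide peaks, dense stretches, a replicate or both replicates were also left out. The scripts were tested on simulated data. Gene annotation and site sequence were not used here. Software was pandas 2.3.3, scipy 1.17.1 and numpy 2.4.6 under Python 3.11.15, with plots by matplotlib 3.10.9.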

Additional observations from a re-analysis of the deposited data

How the results depend on the processing

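None of the 6 comparisons of chromosome II with other chromosomes passed the adjusted threshold under any alternative tried, and directions of such differences carry no weight where they turned. They turned for series-wide peaks in both replicates with a reciprocal overlap of at least 50% (39.4%) and in the higher-scoring 50% (88.7%), and for replicate 2 peaks found in replicate 1 with reciprocal overlap (73.0%). They also turned for the central share of replicate 1 without dense stretches (30.1%), and of replicate 2 in the higher-scoring 50% (41.1%), with peaks within 1000 bp merged (35.8%) and without dense stretches (39.4%). The number of sites in all 3 lists fell from 71 to 45 in the higher-scoring 50% of each list. It was 54 with a reciprocal overlap of 50% and 62 with peaks within 500 bp merged. Leaving out replicate 1 or replicate 2 gave 83 to 85 sites in the remaining pair of lists. Dense stretches numbered 4 when neighbouring midpoints could lie at most 5 kb apart and 6 with 20 kb, against 5 with the 10 kb used. They numbered 3 with series-wide peaks only, and 3 to 5 when a replicate was left out. Spearman's rho of the replicate scores was 0.81 without scores of 3100 and 0.78 over sharp sites. Where a value moved, the cause was not tested, beyond the smaller number of peaks that some alternatives leave. No paired analysis was possible because replicate numbers are shared only between ChIP and input samples, and input files were not analysed here. The lists hold no read counts, so the limits set by depth are unknown.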

Other observations

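The distance from a site of replicate 1 alone to the nearest site in all 3 lists was 62.0 kb at the median, and 14 of 144 (9.72%) lay within 5 kb of one. For the 19 sites in both replicates but not in the series-wide list, the median was 52.4 kb and 1 lay within 5 kb. For the 32 sites of the series-wide list alone it was 41.0 kb. Neighbouring sites in all 3 lists were themselves 142 kb apart at the median, and no class was tested against that spacing.

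Width and score went together only loosely. Over the 71 sites in all 3 lists, Spearman's rho between merged width and series-wide score was 0.29, a description over sites of the same libraries. The series-wide score followed that of replicate 2 (rho = 0.75) and that of replicate 1 (rho = 0.66).

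Some named sharp sites had a close neighbour. The site from 5292113 to 5292666 lay 0.633 kb from another site in all 3 lists, and those from 10335887 to 10336459 and from 10839928 to 10840574 lay within 0.663 kb of sites held by fewer lists. In all, 12 of the 298 sites held more than 1 peak of some list.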
